A study of Mus musculus with 11 samples.

Results

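A total of 1754 sites in mouse epiblast stem cells (EpiSCs) had a ZIC2 peak overlapped by a SOX2 peak and by no listed peak of the other 3 transcription factors (TFs) profiled in EpiSCs. They were selected on the EpiSC peak calls, as the ZIC2 peaks on chromosomes 1 to 19 and X that overlapped a SOX2 peak by at least 1 bp and overlapped no OTX2, POU5F1 or POU3F1 peak, and they made up 1.44% of the 121805 ZIC2 peaks (95% Wilson interval 1.37 to 1.51%, which like every interval here covers counting error only). EpiSCs of the 129/Sv strain were grown with activin at 20 ng/ml and Fgf2 at 10 ng/ml, or were freed of activin for 18 h before harvest (labelled EpiSCA, called activin-free here). Each TF was introduced by transient transfection with a C-terminal biotinylation tag and the BirA enzyme that adds biotin, so what was precipitated with streptavidin was an exogenous protein in a transfected population and not the endogenous TF. There was 1 library per TF and culture, 10 in all, so no difference below carries a test across replicates, and the read depth of the libraries was not used, since the files analysed here are peak lists.

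ZIC2 is a zinc finger TF of the ZIC and GLI group, which binds GC-rich sequences. SOX2 is a high mobility group TF that binds short A and T containing sequences from the minor groove, and is used both in pluripotent cells and in the neural plate. EpiSCs represent the postimplantation epiblast, and they take on an anterior neural plate fate once activin is withheld.

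The DNA of 8 sites is shown as examples of recognition sequences of both TFs within the stretch covered by both peaks, chosen for holding both, as 18.5% of the sites did while 38.3% held neither. The highest-scoring sites and the sites near listed genes included 17 considered here with both a SOX sequence and a ZIC sequence in the shared stretch. Of these, 13 held the nearest pair within 300 bases outside exons, and the 8 with the highest lower score of ZIC2 and SOX2 are shown. That ranking only chose which sites to name, here and further on, and does not compare the strength of the TFs, whose scores come from different libraries. The Pou5f1 site described further on was left out for length, since its pair lay 246 bp apart. SOX sequence here means ACAAAG or ACAATG and ZIC sequence means CAGCAGG or CAGCGGG, on either strand (none of these strings can share a base with one of the other kind). The sequences are from the plus strand of the mm9 genome, 5′ to 3′, with the nearest SOX and ZIC sequences in capitals and 25 bases on each side.
Spry2 upstream, chr14:106320172-106320242: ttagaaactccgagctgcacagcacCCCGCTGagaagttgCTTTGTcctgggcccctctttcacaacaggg
Sox14 downstream, chr9:99773136-99773229: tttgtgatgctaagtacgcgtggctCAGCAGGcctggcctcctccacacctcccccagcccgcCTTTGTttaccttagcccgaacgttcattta
Dll1 upstream, chr17:15518641-15518890: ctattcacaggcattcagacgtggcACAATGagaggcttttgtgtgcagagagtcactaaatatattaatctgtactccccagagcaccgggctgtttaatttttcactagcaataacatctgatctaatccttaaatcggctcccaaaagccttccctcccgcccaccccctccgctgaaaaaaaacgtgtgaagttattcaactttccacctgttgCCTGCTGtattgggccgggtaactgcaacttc
Zic2 downstream, chr14:122889568-122889666: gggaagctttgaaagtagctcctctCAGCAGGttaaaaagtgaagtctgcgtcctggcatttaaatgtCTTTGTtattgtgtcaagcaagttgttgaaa
Fgf8 downstream, chr19:45792286-45792406: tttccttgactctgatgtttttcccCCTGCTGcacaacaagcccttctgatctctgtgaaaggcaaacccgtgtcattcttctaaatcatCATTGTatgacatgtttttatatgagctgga
Cldn6 downstream, chr17:23836033-23836262: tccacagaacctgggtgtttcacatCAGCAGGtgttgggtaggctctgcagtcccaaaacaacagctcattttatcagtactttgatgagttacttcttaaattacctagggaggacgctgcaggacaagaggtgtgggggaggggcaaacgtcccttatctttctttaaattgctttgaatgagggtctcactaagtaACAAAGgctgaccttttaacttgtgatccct
Zic4 promoter, chr9:91276185-91276288: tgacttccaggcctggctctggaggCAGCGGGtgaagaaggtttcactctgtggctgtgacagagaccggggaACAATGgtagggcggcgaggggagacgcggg
Lhx5 intron, chr5:120888102-120888213: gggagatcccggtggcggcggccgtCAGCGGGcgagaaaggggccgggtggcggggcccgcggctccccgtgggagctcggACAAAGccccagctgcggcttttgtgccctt

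In the Spry2 site, upstream of the gene for a feedback inhibitor of FGF signalling, 8 bp separated the ZIC sequence from the SOX sequence. The gap was 31 bp in the site 3.74 kb downstream of the start of Sox14 and 36 bp in the site 12.9 kb downstream of the start of Zic2. It was 41 bp at Zic4, 49 bp in the Lhx5 intron and 58 bp near Fgf8. The widest gaps of the set were 167 bp near Cldn6 and 187 bp upstream of Dll1, the gene for a Notch ligand. No fixed spacing or order of the SOX and ZIC sequences was seen among the 8. The sites are named after listed genes, which need not be the nearest. The Zic2 site lay within 1 kb of another transcription start site, with Gm10837 as its nearest coding gene, and the Cldn6 site was nearest to Cldn9.

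A SOX2 peak lay under 3339 ZIC2 peaks, of which the 1754 sites were 52.5% (50.8 to 54.2%), while 1412 overlapped an OTX2 peak, 252 a POU5F1 peak and 162 a POU3F1 peak. The sites overlapped 1765 SOX2 peaks, and 36 sites held 2 of them. The rule looked at the ZIC2 peak alone, and 95 of the SOX2 peaks overlapped an OTX2 peak themselves, 25 a POU5F1 peak and 33 a POU3F1 peak. An OTX2 peak lay within 1 kb of 18.5% of the sites, beside 11.3% of ZIC2 peaks without another TF. Of all ZIC2 peaks 24.5% had one, but this counts peaks that overlap OTX2, which the rule left out of the sites. The score of a peak is 10 times the negative log10 of the caller's p-value, and, with depth not used here, scores of different libraries are not on a common scale. The ZIC2 score of the sites had a median of 222 (range 50.1 to 3217) where that of all ZIC2 peaks was 170, and the SOX2 score had a median of 91.5 (50.1 to 2516) where that of all SOX2 peaks was 95.5. At the edge of the rule, 25 sites shared 10 bp or less with their SOX2 peak and had a median ZIC2 score of 159, and 27 ZIC2 peaks without another TF stopped 10 bp or less short of a SOX2 peak and had a median ZIC2 score of 275. No site covered a coding exon of the 5 TF genes, which the transfected plasmids carried.

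At 62.6% of the sites both TFs were listed again when activin was absent, a readout that the rule did not use, and at 38.7% (36.5 to 41.0%) when an activin-free score of at least 100 was required, beside 1.80% of all ZIC2 peaks at that score. An activin-free ZIC2 peak overlapped 1492 sites (85.1%, 83.3 to 86.7%), where all EpiSC ZIC2 peaks gave 78.9%. An activin-free SOX2 peak overlapped 1285 sites (73.3%, 71.1 to 75.3%), beside 4.62% of all ZIC2 peaks. Both were found at 1098 sites (62.6%, 60.3 to 64.8%), beside 4.10%. ZIC2 without SOX2 was found at 394 sites (22.5%, beside 74.8%), SOX2 without ZIC2 at 187 (10.7%, beside 0.525%) and neither at 75 (4.28%, beside 20.5%). By the rule every site had an EpiSC SOX2 peak, whereas 3339 of the 121805 ZIC2 peaks had one. SOX2 shares above those of all ZIC2 peaks, also at the score of 100, therefore come with the selection. Among ZIC2 peaks with SOX2 and OTX2 but no POU peak, the share with both ZIC2 and SOX2 was 65.4% (62.7 to 67.9%), so this persistence was not particular to the sites. These counts ask for an overlap with the ZIC2 peak, and 95 sites kept an activin-free SOX2 peak over their SOX2 peak but off their ZIC2 peak. With each TF counted on its own peak, SOX2 was kept at 1360 sites (77.5%, 75.5 to 79.4%), both TFs at 65.6%, ZIC2 alone at 19.4%, SOX2 alone at 11.9% and neither at 3.02%. The activin-free lists and the EpiSC lists share an input control, and the same tag and transfection were used in both.

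**Figure D1:**
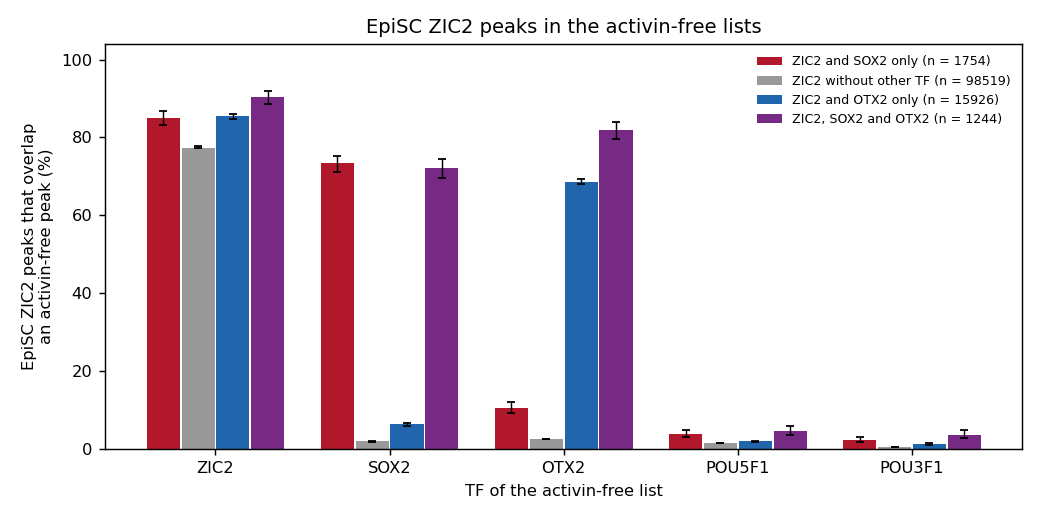
Share of EpiSC ZIC2 peaks that overlapped an activin-free peak of each TF, for the 1754 sites shared with SOX2 only and for 3 other classes of ZIC2 peak; error bars are 95% Wilson intervals. The SOX2 share was 73.3% in the sites shared with SOX2 only and 72.1% in those shared with SOX2 and OTX2, and the OTX2 share was 10.4% and 81.8%.

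Persistence without activin went with the score of the peak. Among sites with a ZIC2 score under 100, 52.7% (48.1 to 57.3%, n = 442) overlapped an activin-free ZIC2 peak, beside 46.1% of all ZIC2 peaks in that range. At scores of 100 to under 300 the shares were 90.8% (88.2 to 92.9%, n = 576) and 87.7%, and at 300 and more all 736 sites did, beside 99.9%. The SOX2 peaks of the sites persisted at the rate of any other SOX2 peak. Of the 1765 peaks, 77.5% (75.4 to 79.3%) overlapped an activin-free SOX2 peak, where all SOX2 peaks gave 77.6% and the 42646 SOX2 peaks that overlapped no other TF gave 77.2%. In the range under 100 the shares were 63.6% and, for SOX2 without another TF, 64.3%. In the range of 100 to under 300 they were 93.6% and 91.5%. At 300 and more, 115 of 116 persisted (99.1%, 95.3 to 99.8%), beside 99.6%, and the exception was the peak upstream of Pou5f1.

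Without activin, a minority of the sites overlapped an OTX2, POU5F1 or POU3F1 peak. The shares were above those of ZIC2 peaks without another TF in EpiSCs. Against SOX2 peaks without another TF, the result depended on which peaks and sites were counted. An activin-free OTX2 peak overlapped 10.4% of them (9.09 to 12%), beside 12.7% of all ZIC2 peaks, 2.52% of ZIC2 peaks without another TF in EpiSCs, 6.53% of SOX2 peaks without another TF, and 81.8% of those with SOX2 and OTX2. An activin-free POU5F1 or POU3F1 peak overlapped 5.70% (4.71 to 6.89%), beside 5.26% of all ZIC2 peaks, 1.85% of those without another TF and 6.08% of SOX2 peaks without another TF. Counted on the SOX2 peaks of the sites, the OTX2 share was 12.6% (11.1 to 14.2%) and the POU5F1 or POU3F1 share 7.25% (6.13 to 8.56%). Of those 1765 SOX2 peaks, however, 95 already overlapped an OTX2 peak in EpiSCs, 25 a POU5F1 peak and 33 a POU3F1 peak. SOX2 peaks without another TF had none by definition, so these 2 sets are not alike. In sites with no peak of another TF within 1 kb, the OTX2 share was 7.09% (5.81 to 8.61%), an interval that holds the 6.53%. The POU5F1 or POU3F1 share of those sites was 4.31% (3.34 to 5.56%). With an activin-free score of at least 100 required, the OTX2 share of the sites was 3.99% (3.17 to 5.01%), beside 8.41% of all ZIC2 peaks and 1.02% of those without another TF. The POU5F1 or POU3F1 share at that score was 2.79% (2.12 to 3.67%), beside 4.13% and 1.07%. At the higher score both shares lay below those of all ZIC2 peaks and above those of ZIC2 peaks without another TF. All ZIC2 peaks include peaks with these TFs in EpiSCs, which the rule left out of the sites, so a lower share is favoured by the selection. ZIC2 and SOX2 with none of the other 3 TFs were found at 912 sites (52.0%, 49.7 to 54.3%). Of all ZIC2 peaks, few of which had a SOX2 peak in EpiSCs, the share was 2.18%.

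The same rule applied to the activin-free lists gave 2865 sites, more than in EpiSCs, and the activin-free SOX2 list was also the longer, with 87781 peaks against 63672. Of the EpiSC sites, 50.1% overlapped one of these, and of the activin-free sites, 30.8% overlapped an EpiSC site. The ZIC2 peak was already listed in EpiSCs at 91.4% of the activin-free sites (90.4 to 92.4%), beside 91.2% of all activin-free ZIC2 peaks. An EpiSC SOX2 peak overlapped the ZIC2 peak at 39.3% (37.5 to 41.1%), beside 2.80% of all activin-free ZIC2 peaks, while 55.9% of all activin-free SOX2 peaks overlapped an EpiSC SOX2 peak. Outside the EpiSC sites, 1983 activin-free sites remained, and 87.6% of these had an EpiSC ZIC2 peak and 14.2% an EpiSC SOX2 peak. Among EpiSC sites with a ZIC2 peak in both lists, the activin-free score was the higher at 67.2%, beside 57.1% of all ZIC2 peaks, with a median log2 ratio of 0.27 beside 0.12. For the SOX2 peak of the site the corresponding share was 75.5%, beside 71.6% of all SOX2 peaks, with a median log2 ratio of 0.58 beside 0.43. The depth of the libraries was not used, and its part in these ratios was not tested.

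The ZIC2 and SOX2 peaks of a site ranged from concentric to side by side. The shared stretch had a median length of 367 bp (1 to 1525 bp), against median widths of 903 bp for the ZIC2 peak and 692 bp for the SOX2 peak. The midpoints lay a median of 480 bp apart (0 to 2494 bp), and 133 bp apart in the 473 sites where at least 50% of both peaks was shared. The midpoint of the SOX2 peak fell inside the ZIC2 peak at 51.7% of the sites, and each midpoint fell inside the other peak at 32.6% (30.5 to 34.8%). The SOX2 peak lay wholly inside the ZIC2 peak at 17.6% and the ZIC2 peak wholly inside the SOX2 peak at 5.13%. An overlap of 1 bp was enough for the rule, which admits such partial overlaps. The midpoints were at most 250 bp apart at 467 sites (26.6%), 251 to 500 bp apart at 454, 501 to 1000 bp apart at 632 and farther apart at 201. These classes were chosen after the distances had been seen. Where fragments of about 150 bp are sequenced, the median distance is larger than a fragment, but the midpoint of a called peak need not be its summit, and summits were not used here.

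**Figure D2:**
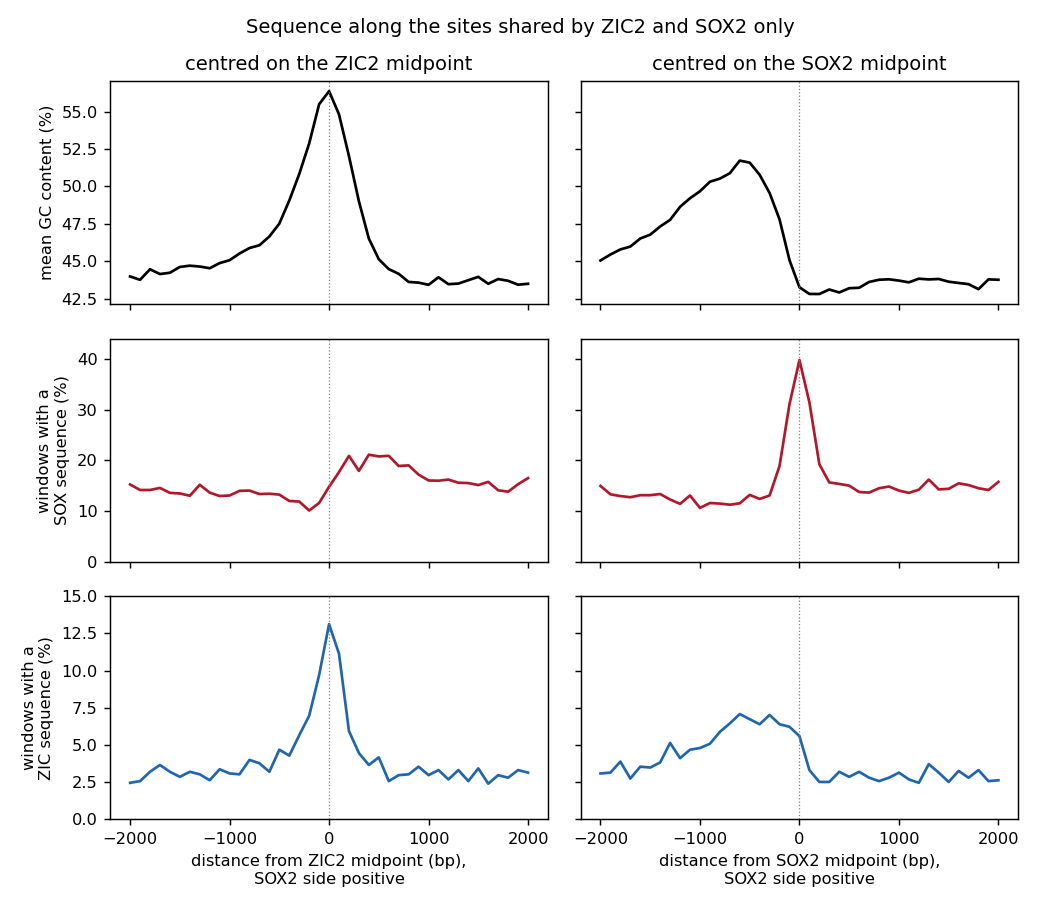
GC content (top) and share of 100 bp windows with a SOX sequence (middle) or a ZIC sequence (bottom) along the 1753 sites whose midpoints differ, against the distance in bp from the ZIC2 midpoint (left) or the SOX2 midpoint (right), with each site turned so that its SOX2 peak lies on the positive side. GC content and ZIC sequences peak at the ZIC2 midpoint, and SOX sequences reach 39.8% at the SOX2 midpoint. Around the ZIC2 midpoint the SOX share is lowest at -200 bp (10.1%), 14.8% at the midpoint itself and highest at 400 bp (21.1%).

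The DNA along the sites changed from GC-rich under ZIC2 to AT-richer under SOX2. In the 201 bp around the ZIC2 midpoint mean GC content was 56.0% ± 9.10 (SD over 1754 sites), beside 55.8% for all ZIC2 peaks. Around the SOX2 midpoint it was 43.4% ± 7.41, above the 38.2% of all SOX2 peaks. At the midpoint of the shared stretch it was 47.8% ± 6.66, and in windows 1000 bp to either side 45.8%. With each site turned so that SOX2 lay on the positive side, the share of 100 bp windows with a SOX sequence was lowest, at 10.1%, 200 bp from the ZIC2 midpoint on the side away from SOX2, and highest, at 21.1%, 400 bp from it on the SOX2 side. Turning each site by its SOX2 peak uses the rule, so these profiles describe the sites and test nothing.

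SOX sequences were slightly more frequent at the SOX2 midpoint of the sites than in all SOX2 peaks. With a wider set of 4 SOX sequences they were not, at 85.7% beside 85.9%. A SOX sequence lay within 100 bp of the SOX2 midpoint at 62.3% of the sites (60.0 to 64.6%), beside 57.4% of all SOX2 peaks and 30.1% of windows 1000 bp from those. At the ZIC2 midpoint the share was 25.7% (23.7 to 27.8%), beside 18.0% of all ZIC2 peaks. ZIC sequences lay at the ZIC2 midpoint of 23.0% of the sites (21.1 to 25.1%), beside 22.0% of all ZIC2 peaks and 7.38% of windows 1000 bp from those. At the SOX2 midpoint the share with a ZIC sequence was 11.3% (9.89 to 12.9%), beside 3.66% of all SOX2 peaks, in DNA that was also richer in GC than that of all SOX2 peaks. The OTX sequence GGATTA lay at the ZIC2 midpoint of 4.79% of the sites (3.88 to 5.89%), beside 3.98% of all ZIC2 peaks, and at the SOX2 midpoint of 5.93% (4.92 to 7.13%), beside 8.24% of all SOX2 peaks.

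At the midpoint of the shared stretch, 45.0% of the sites held a SOX sequence (42.7 to 47.4%) and 14.4% a ZIC sequence (12.9 to 16.1%), beside 25.7% and 6.50% of the windows 1000 bp away. With at least 50% of both peaks shared, the shares were 62.8% and 28.3%. Over the whole shared stretch, whose length varied, 56.2% held a SOX sequence, 23.9% a ZIC sequence, 18.5% (324 sites) both and 38.3% neither. Stretches of the same lengths placed 1000 bp to either side, which overlap the shared stretch where it exceeded 1000 bp, gave 38.7%, 11.8%, 5.13% and 54.6%. In the 324 sites with both, the nearest pair lay a median of 60.0 bp apart (0 to 554 bp), and 45.7% of them were at most 50 bp apart, beside a median of 118 bp and 23.3% in the 180 flanking stretches with both. Lengths were matched over all stretches and not within those that held both. The difference in gaps was therefore not separated from the length of the stretches or the number of sequences in them. A count of all 7-base words at the shared midpoint, made without choosing a TF, led with words that hold part of the ACAA core of a SOX site, among them ACAATGG at 9.01% of the sites and 2.68% of the windows 1000 bp away, and ACAAAGG at 13.1% and 4.50%. CAGCAGG ranked 11 of the 2498 words present in at least 50 sites, at 12.1% and 4.90%. That word lay at the midpoint of 19.4% of ZIC2 peaks without another TF and 2.79% of SOX2 peaks without another TF.

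The 467 sites with midpoints at most 250 bp apart differed in sequence and position from those with distant midpoints. In these close sites GC content was 51.5% at the ZIC2 midpoint and 48.5% at the SOX2 midpoint, whereas it was 58.6% and 40.7% where the midpoints lay 501 to 1000 bp apart. A ZIC sequence lay at the SOX2 midpoint of 26.3% of the close sites (22.5 to 30.5%) and of 6.83%, 6.01% and 2.99% of the sites of the 3 wider classes. A SOX sequence lay at the ZIC2 midpoint of 46.7% of the close sites (42.2 to 51.2%) and of 23.1%, 16.0% and 12.9% of the others. Windows of 201 bp around close midpoints overlap each other, so part of this fall with distance is built into the classes. An activin-free SOX2 peak over the ZIC2 peak was found at 79.4% (75.5 to 82.9%) of the close sites and 65.2% (58.4 to 71.4%) of those over 1000 bp apart, but with SOX2 counted on its own peak the shares were 79.0%, 76.7%, 77.4% and 76.6%. The share with an activin-free ZIC2 peak was 84.4%, 76.0%, 89.1% and 94.5%. The median ZIC2 score of the classes was 164, 139, 279 and 921, the median SOX2 score was 82.6, 87.9, 96.2 and 128, and the median ZIC2 width was 771, 758, 1033 and 1962 bp, so distance, score and width were not separated.

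**Figure D3:**
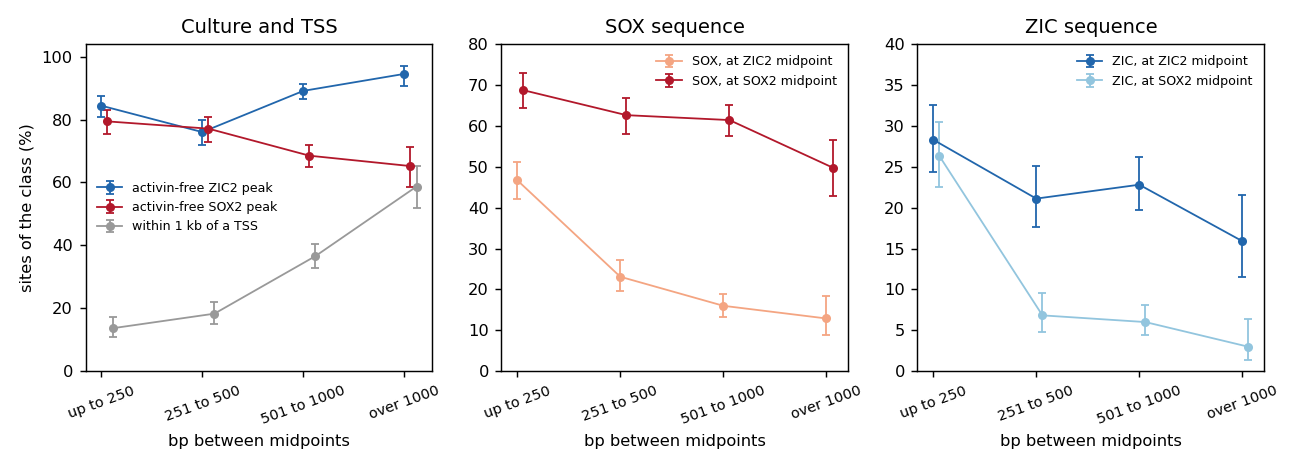
Shares of sites (with 95% Wilson intervals) in 4 classes of distance between the ZIC2 and SOX2 midpoints, in bp: sites whose ZIC2 peak overlapped an activin-free ZIC2 or SOX2 peak or lay within 1 kb of a TSS (left), with a SOX sequence at either midpoint (middle) and with a ZIC sequence at either midpoint (right). The share near a TSS goes from 13.7% to 58.7%, and the share with a ZIC sequence at the SOX2 midpoint from 26.3% to 2.99%.

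Promoters held 28.3% of these sites, and the comparison with ZIC2 peaks in general turned with the overlap asked for. The ZIC2 midpoint lay within 1 kb of an annotated transcription start site (TSS) at 496 sites (28.3%, 26.2 to 30.4%), beside 17.8% of all ZIC2 peaks and 14.9% of ZIC2 peaks without another TF. Among the 473 sites where the shared stretch covered at least 50% of both peaks, the share was 10.8% (8.30 to 13.9%), below that of all ZIC2 peaks. That filter leaves out ZIC2 peaks much wider than their SOX2 peak, and it was not applied to all ZIC2 peaks. The median ZIC2 width of the sites was 1398 bp at promoters, 778 bp in introns and 780 bp between genes, so overlap and width were not separated. The share was 33.2% in ZIC2 peaks with OTX2 only and 45.3% in those with SOX2 and OTX2. Of all SOX2 peaks, 3.81% had their midpoint within 1 kb of a TSS. Of the other sites, 589 (33.6%) lay in introns, beside 39.1% of all ZIC2 peaks. Between genes lay 612 (34.9%), beside 36.2%, and in exons 57 (3.25%), beside 6.99%. CpG frequency at the ZIC2 midpoint, as observed over expected, was 0.422 in the sites and 0.296 in all ZIC2 peaks.

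**Figure D4:**
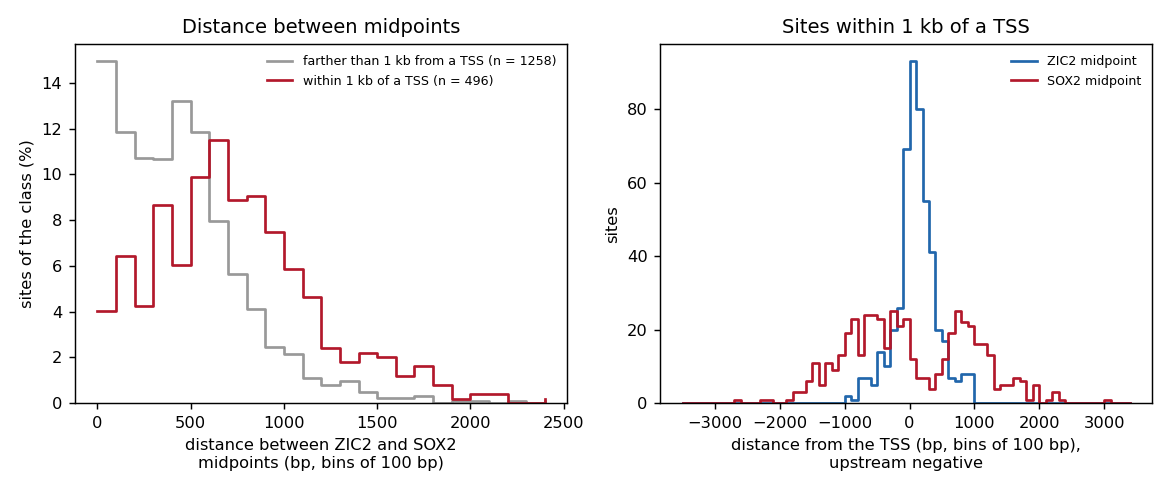
Left, distance between the ZIC2 and SOX2 midpoints in bins of 100 bp, as the percentage of the 496 sites within 1 kb of a TSS and of the 1258 other sites. Right, number of the 496 sites by distance of their ZIC2 and SOX2 midpoints from the TSS, upstream negative; the ZIC2 midpoints gather at the TSS (median distance 168 bp), the SOX2 midpoints on either side of it (776 bp).

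At promoters ZIC2 sat on the start site and SOX2 beside it. Over the 496 sites the ZIC2 midpoint lay a median of 168 bp from the TSS (quartiles 74.0 and 348 bp) and the SOX2 midpoint 776 bp (432 and 1084 bp). The ZIC2 midpoint was within 250 bp of the TSS at 60.7% of these sites (56.3 to 64.9%) and the SOX2 midpoint at 16.1% (13.2 to 19.6%). Choosing the sites by their ZIC2 midpoint favours a short ZIC2 distance. SOX2 lay upstream at 55.4% and downstream at the rest. The median ZIC2 score was 630 at promoters, 143 in introns and 161 between genes, whereas the median SOX2 score was 81.2, 97.3 and 96.9. Activin-free ZIC2 peaks overlapped 96.4% of the promoter sites (94.3 to 97.7%) and activin-free SOX2 peaks 64.7% (60.4 to 68.8%). In introns the shares were 78.6% and 77.2%, and between genes 82.4% and 76.6%. With SOX2 counted on its own peak, its shares were 66.5% (62.3 to 70.5%) at promoters, 81.8% (78.5 to 84.7%) in introns and 82.7% (79.5 to 85.5%) between genes.

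The highest-scoring sites, ranked by the lower of the ZIC2 and SOX2 scores, included genes of signalling and patterning. Highest among the genes of the lists stood Ptch1, the Hedgehog receptor (chr13:63610261-63674474, minus strand). The ZIC2 peak was centred 2 bp upstream of its TSS with a score of 2692, and the SOX2 peak, centred 1655 bp away in the downstream direction, scored 859. Without activin the scores were 3100 and 984. The value 3100 was shared by 768 EpiSC and 2463 activin-free ZIC2 peaks and acted as a near ceiling of the scale. The Ptch1 peaks shared 272 bp, which held no SOX or ZIC sequence, and the SOX2 peak but not the ZIC2 peak reached 2 OTX2 peaks, with scores of 82.5 and 73.5.

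Gbx2, a homeobox gene of the anterior hindbrain (chr1:91824537-91829865, minus strand), had 2 sites, 752 and 2616 bp upstream of its TSS, which both overlapped 1 SOX2 peak. That SOX2 peak scored 513 in EpiSCs and 787 without activin. The ZIC2 peaks scored 199 and 989 in EpiSCs, and 223 and 1466 without activin. At Sox13, a gene of the SOX family, the peaks were nearly concentric, with midpoints 28 bp apart, 4559 bp upstream of a TSS and inside an intron. Their ZIC2 and SOX2 scores were 1262 and 423 in EpiSCs and 2320 and 794 without activin. The Spry2 site, 24055 bp upstream of the gene, had midpoints 184 bp apart and scores of 1434 and 398, and of 1937 and 1312 without activin.

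Pou5f1, which encodes a pluripotency TF that was itself profiled here, had the highest SOX2 score of all the sites, 3539 bp upstream of its TSS. The SOX2 peak (chr17:35639418-35640154) scored 2516 in EpiSCs, and no activin-free SOX2 peak was listed there. The ZIC2 peak scored 524 in EpiSCs and 694 without activin. Among the 116 SOX2 peaks of the sites with a score of 300 or more this was the only one without an activin-free SOX2 peak. A weaker SOX2 peak between the site and the TSS, with a score of 118, also had no activin-free counterpart. With 1 SOX2 library per culture, the peak could not be looked up in a replicate, and its origin, from plasmid DNA included, was not tested.

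**Figure D5:**
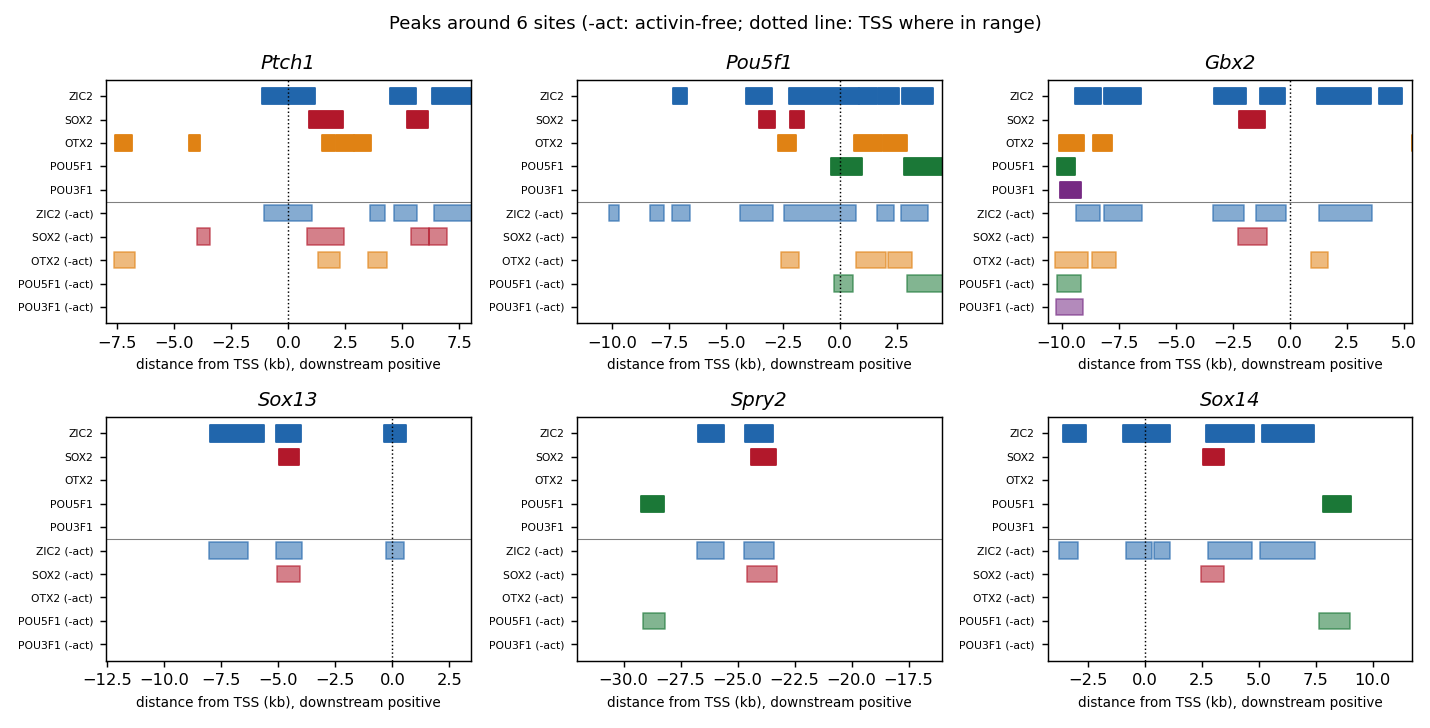
Peaks of the 5 TFs around 6 sites, each bar a called peak, against distance in kb from the TSS of the named gene, with EpiSCs above the grey line and activin-free cells (-act) below it; bars show position and not score. The SOX2 peak beside ZIC2 was listed in both cultures at 5 of the 6 and in EpiSCs only at Pou5f1.

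The ranking held sites at genes outside the lists as well. The first of all, on chromosome 17 and 136583 bp from the nearest TSS, had scores of 1922 and 1475 and held 44 SOX sequences in its shared 1341 bp, far more than the 0 to 5 of the other 11. Sites near Slc25a40 (683 and 1790), in an intron near Mrps28 (483 and 883) and near Tm7sf4 (748 and 406) kept both peaks without activin. So did a site in an intron 271113 bp upstream of Foxk1 (1119 and 464), which without activin also overlapped an OTX2 and a POU peak. In the same ranking and, for Fbxo28 and Sos1, the ranking among promoters alone, at the promoters of Gm10549, Asxl3, Fbxo28 and Sos1, the last a guanine nucleotide exchange factor for RAS, the midpoints lay 1238 to 1761 bp apart, and the shared stretch of 59 to 320 bp held neither sequence.

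Of 22350 protein-coding genes, 2542 (11.4%) had a site within 50 kb of a TSS, while 92.5% had a ZIC2 peak, and a gene near a site is not thereby shown to be regulated by it. Of 280 listed genes of pluripotency, patterning and signalling that the annotation held, 56 (20.0%, 15.7 to 25.1%) had a site. The lists were compiled with earlier results of these data known, and the number of ZIC2 peaks within 50 kb of these 56 genes varied from 2 to 51, so the shares are given without a test. The share was highest for ZIC and GLI family genes (6 of 11), followed by FGF pathway genes (7 of 20), SOX family genes (6 of 18), anterior neural plate genes (8 of 25) and primed epiblast genes (6 of 20). Below these came axon guidance genes (8 of 38), Hedgehog pathway genes (3 of 15), Notch pathway genes (4 of 24), Wnt pathway genes (7 of 47), cell adhesion genes (3 of 21) and pluripotency regulators (3 of 23). Primitive streak and endoderm genes (2 of 22) and Nodal and activin pathway genes (2 of 23) had the fewest. Several lists share genes, and the pairs Zic2 and Zic5 and Zic1 and Zic4 each rest on 1 site.

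In the FGF pathway, the ligand gene Fgf8 had a site with midpoints 46 bp apart and ZIC2 and SOX2 scores of 124 and 188, which were 91.5 and 170 without activin. Fgf18, another ligand gene, had scores of 438 and 122. The remaining 5 genes encode feedback inhibitors or a target TF. Dusp6, a phosphatase that acts on ERK, had a ZIC2 score of 51.0, near the lowest of the sites, and a SOX2 score of 279, above their median. Spry4 (2319 and 60.0), Etv5 (724 and 52.3) and Spred2 (3100 and 103) had ZIC2 scores above the median of the sites, as Spry2 did. Only the Etv5 site of the 7 had no activin-free SOX2 peak.

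Among neural plate and SOX genes, Sox21 had a ZIC2 score of 53.8, near the lowest of the sites, and a SOX2 score of 1566, which were 68.0 and 2244 without activin. Sox14 had scores of 1416 and 362, and of 1670 and 318 without activin. Pax6, a homeobox gene of eye and forebrain, had scores of 88.5 and 148 and lost the ZIC2 peak without activin. Lhx5 (1913 and 66.7), Nes (1901 and 68.1), Sox11 (1317 and 68.6) and the site shared by Zic1 and Zic4 (560 and 81.3) had a SOX2 score under 100 and no activin-free SOX2 peak. The site shared by Zic2 and Zic5 had scores of 1122 and 301, and of 1903 and 624 without activin. En2 kept its SOX2 peak (181, then 240) and lost its ZIC2 peak of 209.

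In the Notch pathway, Dll1 had scores of 1696 and 361, and of 2142 and 573 without activin. Rbpj, which encodes the DNA-binding effector of the pathway, had scores of 1649 and 96.8. Lfng, which encodes a glycosyltransferase that modifies Notch, had scores of 2412 and 83.3 and no activin-free SOX2 peak. Maml2 had scores of 71.2 and 501 and lost its ZIC2 peak without activin. In the Wnt pathway, the site near the ligand gene Wnt3a had a ZIC2 score of 3100 and a SOX2 score of 105, and the receptor gene Fzd7 scores of 327 and 276. The promoter site of Ctnnb1, which encodes beta-catenin, scored 1013 and 57.3 and had no activin-free SOX2 peak. The sites of Fzd1 (3003 and 66.7) and Rspo3 (257 and 212) had none either. In the Hedgehog pathway, Gli2 and Sufu had scores of 181 and 67.7, and of 445 and 56.9, and the Sufu site had no activin-free SOX2 peak. In the Nodal and activin pathway, Smad2 (59.3 and 85.8) and Fst (940 and 57.6) had a promoter site, and Fst, an extracellular inhibitor of activin, had no activin-free SOX2 peak.

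The sites were spread over the genome. They lay in 1122 of the 2576 segments of 1 Mb that held a ZIC2, SOX2 or POU3F1 peak, and no segment held more than 7. A segment with a site held a median of 50 ZIC2 and 24.0 SOX2 peaks, counted over sites, where the segments of all ZIC2 peaks held 102 and 14.0 and those of all SOX2 peaks 18.0 and 35.0. Segments with more ZIC2 than POU3F1 peaks held 69.1% of the sites (66.9 to 71.2%), beside 85.5% of all ZIC2 peaks and 32.0% of all SOX2 peaks. By this measure the sites lay between both lists. Arhgap26 had the most sites within 50 kb (6), followed by Pik3r1 (4), and 34 genes had 3, among them Dbx1, Fgf1 and Sema6a. Fgf1 lies within Arhgap26, so both count some of the same sites.

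By chromosome the sites made up 0.916% (X) to 3.65% (18) of the ZIC2 peaks. Chromosome 18 had the most SOX2 peaks for its ZIC2 peaks, 120 per 100, where all chromosomes together had 52.3. As a share of SOX2 peaks, the sites' partners on chromosome 18 were 2.99% (2.49 to 3.59%), beside 2.77% of all SOX2 peaks. On chromosome X this share was 0.927% (0.594 to 1.44%), the lowest, and on chromosome 11 it was 4.25% (3.65 to 4.95%), the highest.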

How the data were processed

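Biotinylated ZIC2, OTX2, SOX2, POU5F1 and POU3F1 were profiled by ChIP-seq in EpiSC and activin-free cultures, with 1 library per TF and culture. The authors sequenced 100 bp single-end reads and aligned them with Bowtie2 (mm9). Peak calling was by MACS1.4 against an input library at a band width of 150. The deposited peak lists give a score, 10 times the negative log10 of the caller's p-value, and all listed peaks scored at least 50. Reads, read depth and peak summits were not used here.

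Peaks on chromosomes 1 to 19 and X were intersected (at least 1 bp) in Python 3.11.15 with numpy 2.4.6 and pandas 2.3.3. Genes and TSSs were from GENCODE vM1 and sequences from the NCBIM37 (mm9) genome. Windows of 201 bp around midpoints were searched on both strands. Shares carry 95% Wilson intervals from scipy 1.17.1. No p-value was computed, since no group has replicates. The scripts were tested on simulated data.

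The sites and the 13 gene lists were chosen with earlier results of these data known. Genes named were those of the 12 sites with the highest lower score of ZIC2 and SOX2, of the 6 such sites within 1 kb of a TSS, genes of the lists with a site within 50 kb, and the 5 genes with the most sites, where 34 genes tied for the last places. Alternatives changed the score minimum, overlap, neighbouring peaks, peak width, chromosomes, windows and sequences. A site that these rules select is not reported here. Sites on chromosome 18 were not considered for printing sequences.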

Additional observations from a re-analysis of the deposited data

How the results depend on the processing

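Under 12 other settings and 1 more added after seeing the data, which left out sites with a SOX2 peak over 2500 bp wide, 42 of 76 recomputed values stayed within the interval of the reported value (for the number of sites, within 1.5 times) and 34 moved. With scores of at least 100 in both lists, 575 sites remained, and the activin-free ZIC2, SOX2 and both shares were 95.1%, 86.4% and 82.6%, with midpoints 627 bp apart. With at least 50% of both peaks shared, there were 473 sites with midpoints 133 bp apart and shares of 83.3%, 82.7% and 69.6%. Of these sites, 10.8% lay near a TSS, 62.8% held a SOX and 28.3% a ZIC sequence. Sharing that much forces the midpoints together and leaves out wide ZIC2 peaks, and the ZIC2 peaks of promoter sites were the widest. The promoter share lay below the 17.8% of all ZIC2 peaks, to which no such filter was applied. Without peaks of other TFs within 1 kb, the activin-free OTX2 share was 7.09%, the POU share 4.31%, the promoter share 23.9% and the distance 454 bp. With ZIC2 peaks of at most 2000 bp, the promoter share was 24.1% and the distance 453 bp. Activin-free peaks over the shared stretch itself gave 77.6% for ZIC2, 57.3% for both, 7.92% for OTX2 and 4.10% for POU. Activin-free scores of at least 100 gave 71.0% for ZIC2, 55.1% for SOX2, 38.7% for both, 3.99% for OTX2 and 2.79% for POU. The promoter share was 25% with protein-coding transcripts and 24.4% within 500 bp. Windows of 400 bp gave 67.6% with a SOX and 26.0% with a ZIC sequence. With 4 SOX sequences the share was 68.2%, beside 46.7% of windows 1000 bp away, and with any 3 G or C, an A or T, and 3 G or C it was 67.3%, beside 55.5%. Leaving out chromosome X or wide SOX2 peaks moved none of the values. Leaving out sites over coding exons of the TF genes could not be assessed, since there were none. No paired analysis was possible because each TF and culture has 1 library, and without depth a peak that is absent from a list may be below its threshold.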

Other observations

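The SOX2 peaks of the sites included 2 broad calls on chromosome 8 that stood apart in width, of 9412 and 4240 bp against a median of 692 bp, and the second was overlapped by 2 sites near 4930467E23Rik. The genes with 3 sites also included a run of neighbouring predicted genes on chromosome 4 (Gm13271, Gm13272, Gm13275 and Gm13276), which count the same sites. Whether reads that map to several places take part in these was not tested. Of the ZIC2 peaks of the sites, 24 were listed at a score of 3100 and 4 above it, so that differences in score among the strongest sites cannot be read.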
